A study of Mus musculus with 6 samples.

Results

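The Toll-like receptor genes of adherent mouse peritoneal cells were followed here, as the 10 listed members Tlr1 to Tlr9 and Tlr13 among 46141 genes of the deposited table. They were chosen by gene name and split by where the receptor works, into 5 receptors of the cell surface (Tlr1, Tlr2, Tlr4, Tlr5 and Tlr6) and 5 of endosomes (Tlr3, Tlr7, Tlr8, Tlr9 and Tlr13). The cells came from male Balb/c mice, 6 to 8 weeks old, that had received 0.2 mL of BSN-37 at 48 µg/mL, an agent given here only by its code name, or 0.2 mL of phosphate-buffered saline (PBS) into the peritoneum 12 h before lavage. All mice of both groups had first been given 2 mL of 3% thioglycollate broth, an irritant that draws monocytes and macrophages into the cavity, 3 days before sampling. The lavaged cells were enriched by 4 h of adherence. Each group held 18 mice, pooled by 6 into 3 libraries, so that a library stands for a pool and not for an animal.

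Toll-like receptors are membrane proteins that bind microbial molecules through leucine-rich repeats and signal through a cytoplasmic TIR domain. The surface receptors sense mostly lipids and proteins of the microbial wall, while the endosomal ones sense nucleic acids after uptake and depend on the chaperone UNC93B1 to leave the endoplasmic reticulum. Signals run through the adaptors MyD88 and TRIF to NF-kB and interferon regulatory factors, and macrophages carry most members of the family.

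Total counts over genes were 55.9 to 64.9 M in the BSN-37 libraries and 60.4 to 65.5 M in the PBS libraries. In a principal component analysis of coding genes, PBS library 1 stood apart with a score of -37.03 on component 1, where the remaining 5 ranged between -1.47 and 15.65. The sum of the 13 mitochondrially encoded mRNAs was 1650 FPKM in that library, against 4929 to 7548 FPKM in the BSN-37 libraries and 3922 and 6830 FPKM in the other PBS libraries. The macrophage label was matched by its markers, of which Lyz2 (lysozyme) averaged 14310 FPKM in BSN-37 and 14430 FPKM in PBS pools, Lgals3 (galectin-3) 887.5 FPKM in BSN-37 and 837.2 FPKM in PBS pools, and Cd68, a lysosomal glycoprotein of macrophages, 583.2 FPKM in BSN-37 and 556.6 FPKM in PBS pools. T and NK cell markers summed to 0.528 to 1.03 FPKM in BSN-37 and 0.366 to 0.586 FPKM in PBS libraries over 12 genes.

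Of the 9 receptors tested, Tlr7 and Tlr8 had the largest differences between the groups, and both stood higher in the BSN-37 pools. Endosomal Tlr3 (log2 difference 0.46) and surface Tlr4 (0.42) followed with overlapping groups, and Tlr9, Tlr13, Tlr1 and Tlr6 differed by less. Tlr2 had a mean below that of PBS, as did Tlr5, which was not tested. In bulk RNA, more cells of a type and more RNA per cell cannot be told apart. None of the 10 passed the adjusted threshold of 0.05 with edgeR's quasi-likelihood test, which called 1 of 9874 coding genes (0.0101%), Zfp36l1, the gene of an RNA-binding decay factor. No coding gene was called when any library other than BSN-37 library 2 was left out, and 12 were called without that one. At an unadjusted p under 0.05 stood 2 of the 9 tested members, Tlr7 and Tlr8, both higher, where 9.11% of all coding genes tested stood at that level and 4.71% on the higher side. DESeq2 called the same pair as higher after adjustment, where it called 1.21% of the genes and 0.82% as higher, and it called no other member. Tlr5 was the member not tested, since a gene had to reach 1 FPKM (fragments per kilobase of transcript, scaled to library size) in 3 or more libraries.

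Tlr7 binds single-stranded RNA in endosomes and signals through MyD88. It had 36.0, 39.2 and 45.0 FPKM in BSN-37 libraries 1 to 3, against 17.95, 26.4 and 23.7 FPKM in PBS libraries 1 to 3. Each BSN-37 library lay above each PBS library, with a gap between 36.0 and 26.4 FPKM, while 14.6% of the coding genes tested were separated in either direction, 7.84% as higher and 6.77% as lower. The means were 40.1 ± 4.55 FPKM in BSN-37 and 22.7 ± 4.31 FPKM in PBS (SD, n = 3 pools each), from 8724 to 12477 reads per BSN-37 library and 4631 to 7220 reads per PBS library. The log2 difference was 0.77 (SE 0.16, unadjusted p = 0.00105, edgeR adjusted p = 0.359, DESeq2 adjusted p = 0.00434). Only 1.55% of the coding genes tested had a larger positive difference. The gene lies on chromosome X from 167304929 to 167330558, minus strand (GRCm38).

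Tlr8 lies 40.6 kb from Tlr7 on the same strand, from 167242696 to 167264329. In human cells its product senses degradation products of single-stranded RNA. It had 26.8, 25.9 and 34.3 FPKM in the BSN-37 libraries, against 13.8, 19.7 and 17.8 FPKM in the PBS libraries, again without overlap. Its means were 29.0 ± 4.59 FPKM in BSN-37 and 17.1 ± 3.04 FPKM in PBS (SD, n = 3 pools each). The log2 difference was 0.74 (SE 0.17, unadjusted p = 0.00239, edgeR adjusted p = 0.359, DESeq2 adjusted p = 0.0162). In the authors' deposited table both genes carry an upward call, with log2 changes of 0.66 for Tlr7 (p = 1.11e-05, unadjusted) and 0.61 for Tlr8 (p = 0.000101), where 0.801% of the genes with a value were called up and 0.347% down. The other 7 tested members are labelled normal, neither up nor down, in the authors' deposited table.

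The neighbours followed each other from library to library. The ratio of Tlr7 to Tlr8 FPKM was 1.34, 1.52 and 1.31 in the BSN-37 libraries and 1.31, 1.34 and 1.33 in the PBS libraries, ranges that overlapped. On log2 CPM (reads scaled to library size), each centred on its own mean over the 6 libraries, the profiles of Tlr7 and Tlr8 differed by a root mean square of 0.0782. Among 6928 coding genes of at least 5 FPKM, 1 lay nearer to Tlr7 than Tlr8 did. The same measure was 0.217 for Tlr1 and Tlr6, which lie 18.5 kb apart on chromosome 5, and up to 0.571 among all pairs of tested members (Tlr2 and Tlr7).

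**Figure D1:**
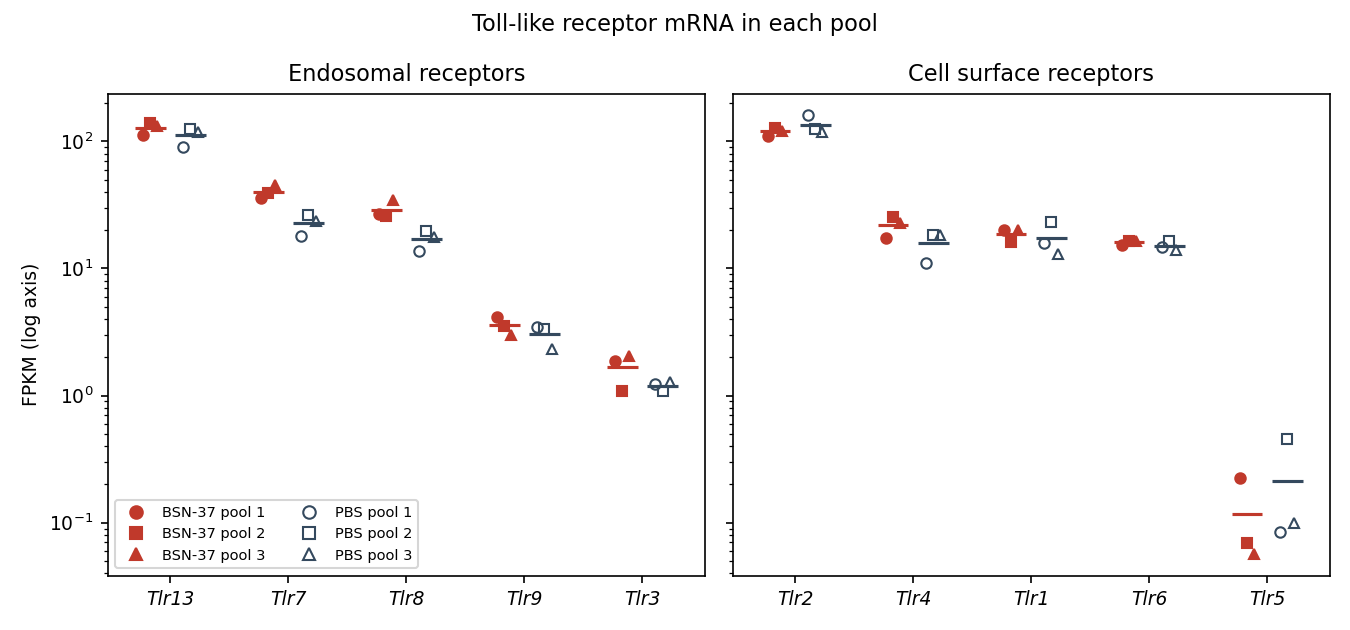
FPKM of the 10 receptors in each library on a log axis, endosomal members on the left and surface members on the right, with BSN-37 pools filled, PBS pools open and a line at each group mean. Tlr7 and Tlr8 are the members whose groups do not overlap, and Tlr5 lies more than an order of magnitude under every surface member.

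**Figure D2:**
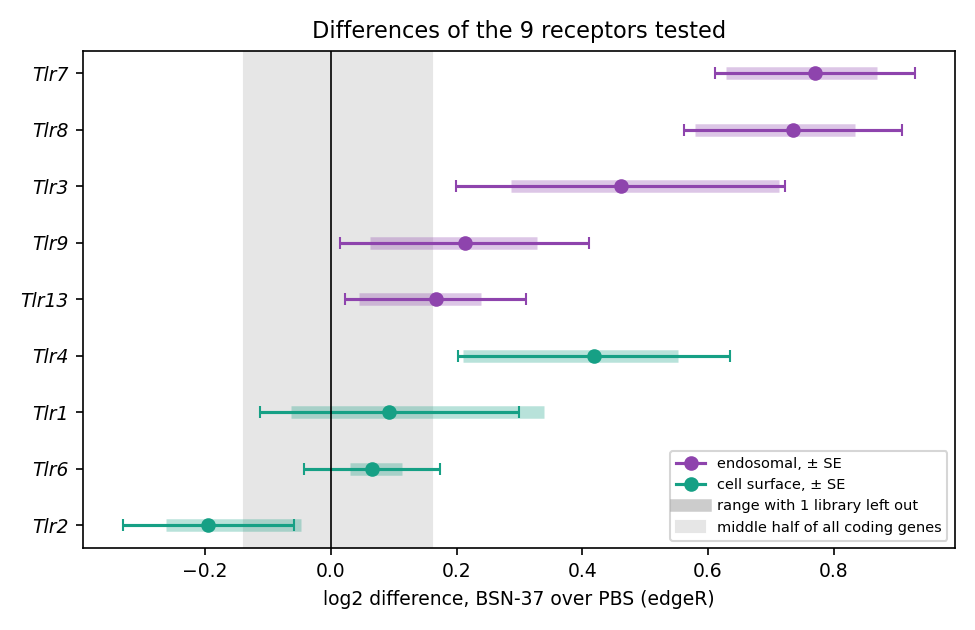
Log2 difference of BSN-37 over PBS for the 9 tested receptors with its standard error, the range of values with 1 library left out as a pale bar, and the interquartile range of all coding genes (-0.14 to 0.16) in grey. Tlr7 (0.77) and Tlr8 (0.74) lie farthest from 0, and Tlr2 (-0.19) is the member below 0.

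Tlr13, a receptor of bacterial ribosomal RNA in mice, was the most abundant endosomal member. It had 112.2, 139.3 and 131.3 FPKM in the BSN-37 libraries, against 90.8, 125.1 and 118.2 FPKM in the PBS libraries. The groups overlapped, and the lowest value was that of PBS library 1. The log2 difference was 0.17 (SE 0.14, edgeR adjusted p = 0.715), and 0.044 with PBS library 1 left out. It lies on chromosome X from 106143204 to 106160493, far from the Tlr7 and Tlr8 pair.

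Tlr9, the receptor of unmethylated CpG DNA, was low, at 4.18, 3.54 and 3.00 FPKM in the BSN-37 libraries and 3.48, 3.31 and 2.31 FPKM in the PBS libraries. The groups overlapped (log2 difference 0.21, SE 0.20, edgeR adjusted p = 0.741), and the difference was 0.063 without BSN-37 library 1 or PBS library 3 and 0.33 without PBS library 1. Tlr3, the receptor of double-stranded RNA that signals through TRIF, had 1.87, 1.085 and 2.05 FPKM in the BSN-37 libraries, against 1.23, 1.092 and 1.27 FPKM in the PBS libraries. BSN-37 libraries 1 and 3 lay above every PBS library, while BSN-37 library 2 lay just below the lowest of them. The log2 difference of Tlr3 was 0.46 (SE 0.26, edgeR adjusted p = 0.615), and 0.71 without BSN-37 library 2 (adjusted p = 0.448).

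Tlr2, which pairs with TLR1 or TLR6 to bind bacterial lipopeptides, was the most abundant member over the 6 libraries. It had 111.1, 127.7 and 121.1 FPKM in the BSN-37 libraries, against 159.8, 124.9 and 119.1 FPKM in the PBS libraries. Only PBS library 1 stood outside the BSN-37 range. The log2 difference was -0.19 (SE 0.14, edgeR adjusted p = 0.665), and -0.048 without PBS library 1. Its partners Tlr1 (19.9, 16.2 and 19.9 FPKM in BSN-37, against 15.7, 23.1 and 12.99 FPKM in PBS) and Tlr6 (15.4, 16.5 and 16.4 FPKM in BSN-37, against 14.9, 16.4 and 14.0 FPKM in PBS) overlapped between the groups. Tlr6 varied little, with a coefficient of variation of 4.02% in BSN-37 pools, the lowest of the 10, and 8.09% in PBS pools, where that of Tlr3 was 7.88%. Its log2 difference was 0.066 (SE 0.11, edgeR adjusted p = 0.854). That of Tlr1 was 0.093 (SE 0.21, edgeR adjusted p = 0.895), and -0.063 without PBS library 3. Tlr1 and Tlr6 are close paralogs, and their separate levels are uncertain where reads fit either gene.

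Tlr4 forms the lipopolysaccharide receptor with MD-2. It had 17.4, 25.5 and 22.7 FPKM in the BSN-37 libraries, against 11.1, 18.4 and 18.4 FPKM in the PBS libraries. BSN-37 library 1 lay below PBS libraries 2 and 3, so the groups overlapped. The log2 difference was 0.42 (SE 0.22, unadjusted p = 0.0868, edgeR adjusted p = 0.586), the largest of the surface receptors tested, and 0.21 without PBS library 1. Tlr5, the flagellin receptor, had 34, 18 and 18 reads in the BSN-37 libraries, against 23, 56 and 30 reads in the PBS libraries. It was not tested in the main comparison, and its FPKM of 0.223, 0.0688 and 0.0570 in BSN-37 and 0.0843, 0.457 and 0.1004 in PBS overlapped (exact permutation p = 0.5, two-sided, where 3 against 3 pools cannot go below 0.1). The transcript length behind these FPKM, from the reads and the library total, ranged from 1969 to 4865 bases for Tlr5, so its FPKM follow the reads only loosely.

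Ordered by their mean FPKM, which is a level per transcript length, the receptors spanned a wide range in each group. In the BSN-37 pools Tlr13 (127.6) and Tlr2 (120.0) led, followed by Tlr7 (40.1), Tlr8 (29.0), Tlr4 (21.9), Tlr1 (18.7) and Tlr6 (16.1), then Tlr9 (3.57), Tlr3 (1.67) and Tlr5 (0.116). In the PBS pools Tlr2 (134.6) and Tlr13 (111.4) led, followed by Tlr7 (22.7), Tlr1 (17.3), Tlr8 (17.1), Tlr4 (15.98) and Tlr6 (15.1), then Tlr9 (3.04), Tlr3 (1.20) and Tlr5 (0.214). Tlr2 and Tlr13 overlapped within each group and are not ordered beyond their spread. Library by library, the ratio of Tlr13 to Tlr2 was 1.01, 1.09 and 1.085 in BSN-37, against 0.568, 1.002 and 0.993 in PBS. The ranges of Tlr7 and Tlr8 lay apart in the BSN-37 pools and overlapped in the PBS pools, where Tlr8 also overlapped with Tlr1, Tlr4 and Tlr6. Within every library Tlr7 lay above Tlr8, also in PBS, where their ratio was 1.305 to 1.34. Tlr2 and Tlr13 ranked 357th and 389th among the 9874 coding genes tested, above 96.4% and 96.1% of them, while Tlr9 and Tlr3 lay above 19.7% and 5.03%.

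The endosomal and surface groups were set side by side as a description, with no test, since the members were listed with earlier results of these data known. All 5 endosomal members tested and 3 of the 4 surface members tested had a log2 difference above 0, as did 49.5% of the coding genes tested. The median log2 difference was 0.46 over the endosomal and 0.08 over the surface members, beside -0.0024 over all coding genes tested. Of the summed FPKM of the 10 receptors, endosomal members made up 52.5%, 52.9% and 54.5% in the BSN-37 libraries, against 38.7%, 48.9% and 49.8% in the PBS libraries. Tlr2 and Tlr13 alone supplied 63.8% to 67.6% of that sum in BSN-37 and 69.6% to 76.2% in PBS libraries. The endosomal median rested on where Tlr3 and Tlr9 fell. It was 0.71 when BSN-37 library 2 was left out and 0.32 when library 3 was, and the surface median ran from -0.016 without PBS library 3 to 0.23 without PBS library 2.

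**Figure D3:**
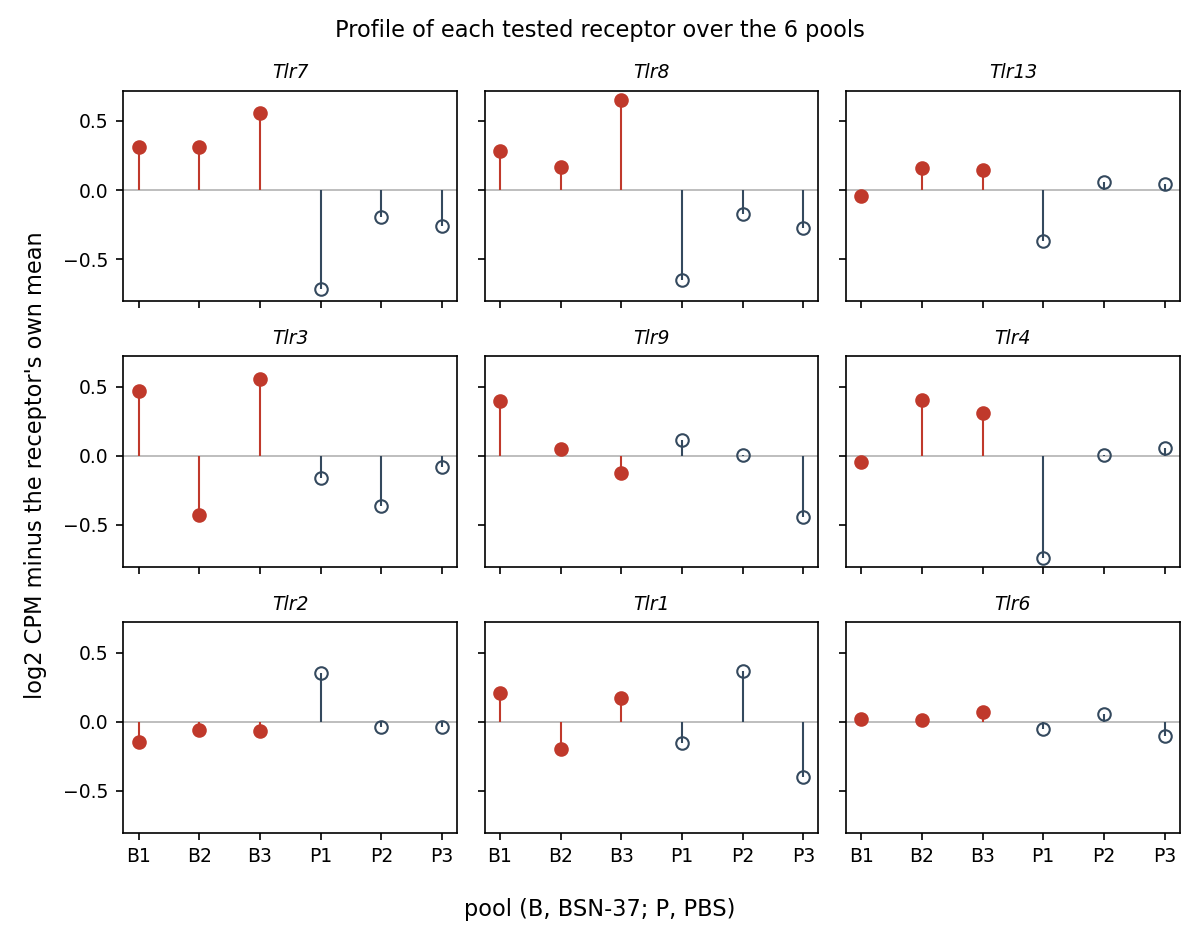
Log2 CPM of each tested receptor in each library, minus the receptor's own mean over the 6 libraries (B, BSN-37; P, PBS). Tlr7 and Tlr8 have all BSN-37 libraries above their mean and all PBS libraries below it, Tlr4 and Tlr13 are lowest in PBS library 1, where Tlr2 is highest, and Tlr3 is low in BSN-37 library 2.

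With PBS library 1 left out, Tlr7 kept a log2 difference of 0.63 (unadjusted p = 0.00102, edgeR adjusted p = 0.366) and Tlr8 of 0.61 (unadjusted p = 0.00657, adjusted p = 0.452). Over the 6 fits with a library left out, the difference of Tlr7 lay between 0.63 and 0.87 and its unadjusted p between 0.00102 and 0.00462. That of Tlr8 lay between 0.58 and 0.83, with unadjusted p between 0.00206 and 0.00895, and neither was called after adjustment in any of them.

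For reference to the regions before the RefSeq starts of these genes, RefSeq promoter windows (GRCm38.p6) were found for 8 of the 10 members, all but Tlr4 and Tlr7. The 250 bases before the RefSeq start are shown for Tlr8, of the pair with the widest gap, and for Tlr13 and Tlr2, the most abundant receptor of each kind. The windows lie at chrX:167264330-167264579 (minus strand), chrX:106143025-106143274 (plus strand) and chr3:83841609-83841858 (minus strand). RefSeq starts can differ from the GENCODE annotation used for the gene coordinates here. By that annotation Tlr13 begins at 106143204 and Tlr2 at 83841767, so these 2 windows lie partly inside the genes. Capitals mark matches on either strand to GAGGAA, the core of sites of the macrophage factor PU.1, in Tlr8 and Tlr13, and overlapping matches to the kappa-B consensus, the NF-kB site, in Tlr2.
Tlr8: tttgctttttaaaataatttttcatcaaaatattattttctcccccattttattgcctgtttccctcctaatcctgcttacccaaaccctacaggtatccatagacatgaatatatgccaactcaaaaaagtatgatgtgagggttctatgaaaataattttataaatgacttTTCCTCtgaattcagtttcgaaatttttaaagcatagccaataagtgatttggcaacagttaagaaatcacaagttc
Tlr13: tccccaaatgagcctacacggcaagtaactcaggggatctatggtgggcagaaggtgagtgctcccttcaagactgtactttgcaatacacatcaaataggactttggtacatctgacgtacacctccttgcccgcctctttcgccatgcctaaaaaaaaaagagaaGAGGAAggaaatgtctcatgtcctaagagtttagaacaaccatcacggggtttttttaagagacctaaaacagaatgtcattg
Tlr2: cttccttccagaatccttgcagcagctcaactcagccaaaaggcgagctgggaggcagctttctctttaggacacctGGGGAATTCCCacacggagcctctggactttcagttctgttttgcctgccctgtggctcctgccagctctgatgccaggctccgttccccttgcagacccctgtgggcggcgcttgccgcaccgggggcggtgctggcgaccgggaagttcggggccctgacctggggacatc
GAGGAA occurred in 4 of the 10 member windows and in 23.3% of 32851 windows of all genes. The kappa-B consensus occurred in 2, those of Tlr2 and Tlr3, and in 7.25% of all windows. The letters of the interferon-stimulated response element were found in a window of Tlr6 alone among the members (2.98% of all windows). Those of the AP-1 site, TGANTCA, were found in the window of Tlr9 alone (6.75%). By the GENCODE coordinates, that Tlr6 window and the Tlr3 window lie inside the genes and not upstream of them. These are matches of letters and not shown binding sites.

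The genes that carry, assist and relay the receptors were counted from lists written for the pathway. Of 8 coreceptors, 7 were tested and none passed with edgeR. Higher at an unadjusted p under 0.05 were 3, and 0 were lower, beside 4.71% and 4.41% of all coding genes tested. DESeq2 called 2, Ly86 and Clec7a, where it called 1.21% of all. Ly86 encodes MD-1, which binds the receptor homologue CD180. It had 25.9, 25.9 and 28.9 FPKM in BSN-37 libraries, against 13.2, 16.7 and 16.5 FPKM in PBS libraries. Its groups did not overlap (log2 difference 0.77, edgeR adjusted p = 0.278, DESeq2 adjusted p = 0.000871). Cd180 itself averaged 58.8 ± 14.15 FPKM in BSN-37 and 42.7 ± 3.08 FPKM in PBS pools (SD, n = 3 pools each). Clec7a, the beta-glucan receptor Dectin-1 that cooperates with TLR2, averaged 62.6 ± 20.1 FPKM in BSN-37 and 28.3 ± 6.03 FPKM in PBS pools. Its groups did not overlap (edgeR adjusted p = 0.359, DESeq2 adjusted p = 0.00225). Cd14 and Ly96, which load lipopolysaccharide onto TLR4, overlapped between the groups. Cd14 averaged 368.2 FPKM in BSN-37 and 371.8 FPKM in PBS pools, and Ly96, the gene of MD-2, 31.0 FPKM in BSN-37 and 26.8 FPKM in PBS pools.

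Of 21 genes for folding, trafficking and cleavage of Toll-like receptors, all were tested and none passed. Among them 3 were higher and 0 lower at an unadjusted p under 0.05 (4.71% and 4.41% of all coding genes tested). Lgmn, the asparagine endopeptidase, had 402.6, 412.4 and 456.3 FPKM in BSN-37, against 305.6, 331.8 and 310.6 FPKM in PBS. Ctsl, the gene of cathepsin L, had 722.7, 783.5 and 918.6 FPKM in BSN-37, against 595.1, 629.8 and 626.4 FPKM in PBS. Hsp90b1, the endoplasmic reticulum chaperone gp96, had 88.0, 109.0 and 116.8 FPKM in BSN-37, against 52.9, 81.2 and 81.5 FPKM in PBS. The groups did not overlap for any of these 3, and the edgeR adjusted p-values were 0.411, 0.467 and 0.506. The products of Lgmn and Ctsl can cut endosomal receptors into their active form. Unc93b1 averaged 209.2 ± 6.68 FPKM in BSN-37 and 187.5 ± 12.5 FPKM in PBS pools (log2 difference 0.12, edgeR adjusted p = 0.740), again without overlap, so that 4 of the 21 were separated as higher, beside 7.84% of all coding genes tested. The median log2 difference of this list was 0.04.

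None of the 6 TIR adaptors tested, of 8 listed, stood at an unadjusted p under 0.05 in either direction, nor was any called by DESeq2. Myd88 averaged 60.7 ± 4.27 FPKM in BSN-37 and 62.7 ± 8.98 FPKM in PBS pools, and Ticam1, the gene of TRIF, 5.33 ± 2.31 FPKM in BSN-37 and 3.71 ± 1.52 FPKM in PBS pools (SD, n = 3 pools each). Of the 20 kinases and ubiquitin ligases downstream, none passed, 0 were higher and 2 lower at an unadjusted p under 0.05 (4.71% and 4.41% of all coding genes tested). These were Ikbkg, the gene of NEMO (34.5 ± 0.902 in BSN-37 and 47.5 ± 2.00 FPKM in PBS), and the ligase gene Peli3 (1.83 ± 0.377 FPKM in BSN-37 and 2.62 ± 0.490 FPKM in PBS). Of 14 transcription factors of the pathway, 1 stood higher at that level and 0 lower, against the same shares of all genes. None passed with edgeR, and DESeq2 called 1, where it called 1.21% of all coding genes tested. In both cases this was Cebpb, at 30.1 ± 9.60 FPKM in BSN-37 and 13.3 ± 4.78 FPKM in PBS pools. Its groups did not overlap (edgeR adjusted p = 0.379, DESeq2 adjusted p = 0.00893).

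Of 17 feedback inhibitors of the pathway tested, 5 had a log2 difference above 0 and 12 below (median -0.16), where 49.5% of all coding genes tested were above 0. At an unadjusted p under 0.05, 5 were lower and 1 higher, beside 4.41% lower and 4.71% higher over all coding genes tested. None passed with edgeR, while DESeq2 called 3, where it called 1.21% of all. Nfkbia, which encodes the NF-kB inhibitor IkB-alpha, had 120.0, 121.7 and 99.4 FPKM in BSN-37, against 172.8, 177.3 and 136.8 FPKM in PBS (log2 difference -0.54, edgeR adjusted p = 0.383). The groups did not overlap. Nfkbie, another NF-kB inhibitor, averaged 25.0 ± 2.44 FPKM in BSN-37 and 33.9 ± 1.55 FPKM in PBS pools (SD, n = 3 pools each). Tnip1, a partner of the deubiquitinase A20, averaged 35.3 ± 5.43 FPKM in BSN-37 and 49.9 ± 2.53 FPKM in PBS pools, and Traf1 19.9 ± 2.03 FPKM in BSN-37 and 29.2 ± 4.15 FPKM in PBS pools. These 4 and Socs3 (8.96 ± 1.01 FPKM in BSN-37 and 13.3 ± 3.47 FPKM in PBS) were the lower members, and the phosphatase gene Dusp1 (46.5 ± 16.7 FPKM in BSN-37 and 29.3 ± 5.91 FPKM in PBS) was the higher one.

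Of 12 nucleic acid sensors outside the family tested, 11 had a log2 difference above 0 (median 0.37), beside 49.5% of all coding genes tested. At an unadjusted p under 0.05, 2 were higher and 0 lower (4.71% and 4.41% of all), with none past the adjusted threshold or called by DESeq2. The 2 were Ifi204 and Aim2, and Aim2 averaged 12.6 ± 2.64 FPKM in BSN-37 and 10.2 ± 1.80 FPKM in PBS pools, with overlap. Ifi204, a DNA sensor, had 37.6, 12.2 and 42.7 FPKM in the BSN-37 libraries, against 15.4, 11.7 and 10.7 FPKM in the PBS libraries. Ddx58, the gene of the RNA helicase RIG-I, was not at that level (edgeR unadjusted p = 0.316). It had 43.3, 15.7 and 47.0 FPKM in BSN-37, against 35.5, 24.6 and 21.2 FPKM in PBS. Both were lowest among BSN-37 libraries in library 2, as were Tlr3 and, by a small margin, Tlr8 (25.9 FPKM, against 26.8 FPKM in library 1), while Tlr7 in that library (39.2 FPKM) lay between those of libraries 1 and 3. Dhx9, an RNA helicase gene of the list, did not share that order, at 32.0, 34.3 and 36.9 FPKM in BSN-37, against 24.6, 36.2 and 31.0 FPKM in PBS.

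Markers of other cells that carry these receptors were read in the same libraries. Of 12 monocyte markers, all tested, 10 had a log2 difference above 0, with 7 higher and 2 lower at an unadjusted p under 0.05, beside 49.5% above 0, 4.71% higher and 4.41% lower over all coding genes tested. DESeq2 called 5 of the 12, where it called 1.21% of all coding genes tested. Groups were separated for 4 as higher and 1 as lower, beside 7.84% and 6.77% of all. Ccr2, a chemokine receptor of inflammatory monocytes, had 49.6, 58.3 and 57.6 FPKM in BSN-37, against 18.5, 27.9 and 27.0 FPKM in PBS. Its groups did not overlap (edgeR adjusted p = 0.278, DESeq2 adjusted p = 3.47e-07). Lyz1, a lysozyme gene and the second most abundant of the list, lay the other way without overlap, at 458.7, 465.6 and 503.4 FPKM in BSN-37, against 747.5, 817.3 and 619.8 FPKM in PBS (edgeR adjusted p = 0.337, DESeq2 adjusted p = 0.00277). F13a1, the gene of a coagulation factor subunit, was the other lower member, at 30.1 ± 5.19 FPKM in BSN-37 and 37.6 ± 2.03 FPKM in PBS pools. The summed level of the list was 3112 to 3631 FPKM in BSN-37 and 2897 to 3372 FPKM in PBS libraries, most of it Fn1, the fibronectin gene (2390 ± 282.8 FPKM in BSN-37 and 2105 ± 122.5 FPKM in PBS). Of 12 B cell markers, 7 were tested and all 7 had a log2 difference above 0. At an unadjusted p under 0.05 stood 5, beside the same shares. DESeq2 called 4 of the 7 (1.21% of all coding genes tested). The sum of the 12 was 99.4, 113.4 and 50.9 FPKM in BSN-37 libraries 1 to 3, against 34.6, 54.4 and 33.2 FPKM in PBS libraries 1 to 3.

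The 11 plasmacytoid dendritic cell markers summed to 73.2 to 87.8 FPKM in BSN-37 and 53.6 to 81.9 FPKM in PBS libraries, mostly from Irf8 and Bst2, which other cells also express. The defining marker Siglech had at most 0.0332 FPKM in BSN-37 and 0.0591 FPKM in PBS libraries, and Klk1 was at 0 in all 6. Ly6d, too low to be tested, averaged 0.686 FPKM in BSN-37 and 0.256 FPKM in PBS pools, without overlap. Of the 11, 6 were tested and 5 had a log2 difference above 0, beside 49.5% of all coding genes tested. At an unadjusted p under 0.05 stood 0 as higher and 0 as lower, beside 4.71% and 4.41% of all, and DESeq2 called none. Neutrophil markers summed to 158.6 to 262.7 FPKM in BSN-37 and 133.0 to 163.7 FPKM in PBS libraries. Csf3r, S100a8 and Mmp9 had the highest means of the list, while 4 of the 13 averaged under 0.1 FPKM, among them Elane at 0 in all 6 libraries. Of 13, 7 were tested and 4 had a log2 difference above 0, beside 49.5% of all coding genes tested. At an unadjusted p under 0.05, 1 was higher and 1 lower (4.71% and 4.41% of all). DESeq2 called 1 of the 7, where it called 1.21% of all, and 1 was separated as higher, beside 7.84% of all. Csf3r, the receptor of a granulocyte growth factor, was the higher one without overlap, at 80.3 ± 8.77 FPKM in BSN-37 and 58.3 ± 4.26 FPKM in PBS pools (edgeR adjusted p = 0.399, DESeq2 adjusted p = 0.046). Mmp9, a gelatinase gene, was the lower one, at 32.1 ± 5.97 FPKM in BSN-37 and 42.5 ± 9.54 FPKM in PBS pools. S100a8, a calcium-binding protein of neutrophils, overlapped, at 34.9, 82.8 and 26.3 FPKM in BSN-37 libraries, against 13.5, 38.8 and 30.9 FPKM in PBS libraries. Macrophage markers summed to 16700 to 19530 FPKM in BSN-37 and 16540 to 18960 FPKM in PBS libraries. Most of that sum was Lyz2 (14310 FPKM in BSN-37 and 14430 FPKM in PBS pools). Of the 12, 8 had a log2 difference above 0, beside 49.5% of all coding genes tested. DESeq2 called 1 of these 12 (1.21% of all coding genes tested). This was Aif1, at 10.42 ± 2.115 FPKM in BSN-37 and 5.82 ± 0.588 FPKM in PBS pools, without overlap (edgeR adjusted p = 0.379, DESeq2 adjusted p = 0.0264). The part of the monocyte, B cell and neutrophil marker levels in the Tlr7 and Tlr8 differences was not tested.

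**Figure D4:**
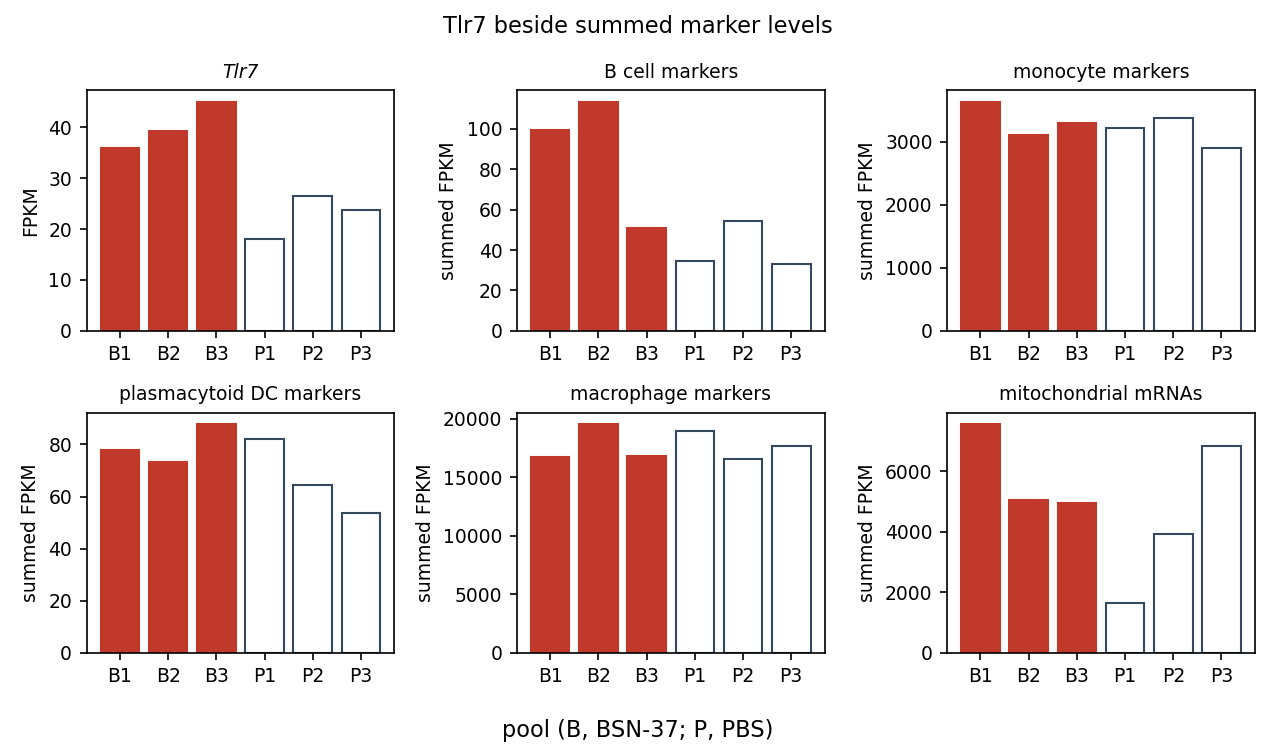
FPKM of Tlr7 and summed FPKM of marker lists in each library as bars from 0 (B, BSN-37 filled; P, PBS open). Tlr7 separates the groups, the B cell sum does not (50.9 FPKM in BSN-37 library 3, 54.4 in PBS library 2), and the mitochondrial mRNAs are lowest in PBS library 1. The macrophage sum is mostly Lyz2 and the monocyte sum mostly Fn1.

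The profiles nearest to Tlr13 over the 6 libraries were those of Kdm5a, Skp1a, Zfp106, Cab39 and Azin1, with root mean square differences of 0.0272 to 0.0387 on centred log2 CPM among 6929 coding genes. Those nearest to Tlr2 were Agap3, Man1b1, Tmed9, Trim35 and Thap11, at 0.0304 to 0.0394. Skp1a, the gene of a ubiquitin ligase subunit, had 34.9, 42.0 and 40.7 FPKM in BSN-37, against 30.4, 38.8 and 39.7 FPKM in PBS. Agap3, a GTPase-activating protein gene, had 17.2, 19.8 and 18.1 FPKM in BSN-37, against 24.7, 19.7 and 19.1 FPKM in PBS. PBS library 1 held the lowest value of the genes near Tlr13 and the highest of those near Tlr2, as it did for the receptors themselves. These genes were chosen for likeness to the receptors over the same 6 libraries, so the shared extreme follows from the choice.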

How the data were processed

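Ribosomal RNA was removed and directional libraries were sequenced from 6 pools, per the labels' protocols. The series' design text speaks of microarrays, but the deposited values and the labels' library protocol are of sequencing and were treated as such. Per the file headers, the deposited gene table holds read counts and FPKM for each library. The build is GRCm38 (submitters' processing notes), while no label or header names the aligner, the counter, its use of strand or the length used for FPKM. The authors' deposited DESeq2 p-value, log2 fold change and call (p under 0.05 and 1.5-fold, per the file headers) appear only where named. The deposited circular RNA table holds junction counts, per the file headers, and was read only for loci hosted by these genes. Its 6 per-sample signal columns and 4 columns of group means were not used.

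Coding genes, including immunoglobulin, T cell receptor and polymorphic pseudogene classes, were identified through GENCODE M21 (42456 of 43339 Ensembl IDs matched). The 9874 that reached 1 FPKM in 3 or more libraries were tested on counts by edgeR 4.0.16 in R 4.3.3, with TMM scaling, the two-sided quasi-likelihood test, no covariate and Benjamini-Hochberg adjustment over all of them (threshold 0.05). SE is the absolute log2 difference over the square root of F. Differences are BSN-37 over PBS, and ± values are SD over pools. Alternatives were DESeq2 1.42.0, limma 3.58.1 on log2(FPKM + 1) and log2(FPKM + 0.1), median-of-ratios scaling, other filters, all gene classes, a replicate block and each library left out. Tests were checked on simulated counts, where DESeq2 made more false calls than edgeR. All library pairs differed by more than sampling noise.

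The members and lists were chosen with earlier results of these data known. Named genes are the 10 members, up to 4 of lowest p in each pathway list, up to 3 of highest mean FPKM in each cell type list, called coding genes, and the 5 genes of at least 5 FPKM nearest in profile to the most abundant receptor of each kind. Outside that rule, Cd14, Ly96, Unc93b1, Socs3, Dusp1, Ddx58, Dhx9, Ccr2, F13a1, Siglech, Klk1, Ly6d, Elane and Aif1 were named after their values were seen.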

Additional observations from a re-analysis of the deposited data

How the results depend on the processing

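The values of the 9 tested receptors were recomputed under 14 other settings, which gave 124 values. Of these, 121 kept the direction and the side of the adjusted threshold. DESeq2 called Tlr7 (log2 difference 0.78) and Tlr8 (0.75), so that 2 members were called in place of 0. Tlr1 reversed without PBS replicate 3, at -0.063, in a range of -0.063 to 0.34 with a library left out, and the cause was not tested. The count of coding genes called, 1 in edgeR, was 119 with DESeq2, 2 with no filter on FPKM, and 0 with median-of-ratios factors, at 5 FPKM or more, with limma at either pseudocount, over all gene classes and with the replicate block, where 883, 640, 868 and 856, 960 and 1025 genes stood at an unadjusted p under 0.05. With a library left out it ran from 0 to 12, and 12 was reached without BSN-37 library 2. The endosomal median was 0.73 at 5 FPKM or more, which drops Tlr3 and Tlr9, and 0.26 with limma on log2(FPKM + 1), a scale that shrinks differences of low genes. With a library left out it ran from 0.32 to 0.71, and the surface median from -0.016 to 0.23. With the replicate block Tlr4 had an unadjusted p of 0.0124 (edgeR adjusted p = 0.368). Deviations of same-numbered libraries correlated at 0.05, 0.15 and 0.00, so the replicate numbers were not taken to pair samples, and the block changed no call of a member. With no filter Tlr5 had a log2 difference of -0.56 (SE 0.585, edgeR adjusted p = 0.781) on 18 to 56 reads per library.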

Other observations

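Mouse Tlr11 and Tlr12, endosomal receptors of profilin that are not among the 10 members, were close to absent. Tlr11 had 2, 5 and 0 reads in BSN-37 libraries 1 to 3, against 8, 0 and 0 reads in PBS libraries 1 to 3. Tlr12 had 0 reads in each BSN-37 library, against 4, 0 and 0 reads in the PBS libraries. An unnamed gene model that the authors' annotation matches to rat Tlr10 had 40, 56 and 59 reads in BSN-37, against 69, 47 and 40 reads in PBS, with no separation of the groups. None of the 1273 circular RNA loci listed has a Toll-like receptor as host gene.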
